A study of Mus musculus with 6 samples.

Results

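The mitosis and kinetochore genes described here are 40 mouse genes whose products start mitosis, shape the chromosomes, fasten them to the spindle, check that attachment and divide the cell. They were taken by symbol from a list. All 40 were among the 32061 genes of the count table, and all 40 passed the filter on low counts that left 13839 genes for testing.

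Messenger RNA was measured in biliary epithelial cells, which line the bile ducts of the liver. Per the labels, mouse bile ducts were picked by hand, grown as organoids over several passages and then moved to flat culture on collagen. Of 6 samples, 3 were labelled competent for primary cilia (PC) with the treatment -4OHT, and 3 were labelled PC depleted with the treatment +4OHT. The letters 4OHT commonly stand for 4-hydroxytamoxifen, the compound that activates tamoxifen-inducible forms of Cre recombinase. The table's columns are named PC WT and PC KO, which were read as competent and depleted. The labels used here give no strain, age, allele or Cre driver, and whether replicates are separate animals or separate cultures is not stated. The p-values thus cover the variation among these 6 libraries alone, and that variation may be technical. Treatment with 4OHT and loss of cilia coincided in every sample and cannot be told apart.

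Total counts ran from 26293486 to 36998935 per sample. Wdr35, taken as the deleted gene from knowledge of the study, had 33.3 ± 1.98 CPM in competent and 27.99 ± 1.60 CPM in depleted samples (SD, n = 3 each; CPM is edgeR's depth-scaled unit, a gene's count relative to the TMM-adjusted library size); a count over a whole gene does not show a deleted exon. The biliary markers were present: the 8 genes of that list summed to 5950 to 6040 CPM in competent and 4268 to 4520 CPM in depleted samples, with Krt7 and Spp1 the most abundant and Sctr too low to test. Markers of fibroblasts or stellate cells summed to at most 3.49 CPM in any sample, with Col1a2, Col3a1 and Lum at 0 in all 6, and endothelial markers to at most 0.499 CPM. The 6 hepatocyte markers summed to 214.1 to 236.5 CPM in competent and 239.8 to 247.4 CPM in depleted samples, most of it Hnf4a (203 and 227 CPM on average), while the defining hepatocyte genes Alb and Cyp2e1 had 2.61 and 0 CPM in competent and 2.57 and 0.0094 CPM in depleted samples. The part of these markers in the results was not tested. The 6 leukocyte markers summed to 45.4 to 51.3 CPM over all samples, nearly all of it Csf1r, while the defining leukocyte gene Ptprc had 0.149 and 0.185 CPM in the groups.

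In a dividing cell, cyclin B bound to the kinase Cdk1 starts mitosis, condensin compacts the chromosomes, and kinetochores built on each centromere capture spindle microtubules. The spindle checkpoint holds back the anaphase-promoting complex (APC/C) until every kinetochore is attached, after which chromatids separate and cytokinesis splits the cell. Most of these genes are transcribed in a pulse late in the cell cycle, so in tissue or culture their mRNA level depends strongly on how many cells are dividing. The normal biliary epithelium divides rarely, whereas cholangiocytes in organoid or plate culture cycle actively. In bulk RNA such as this, fewer dividing cells and less RNA per dividing cell cannot be told apart.

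Promoters of mitosis genes are known for 2 short elements, the CCAAT box bound by NF-Y and the cell cycle homology region (CHR) bound by the DREAM and MuvB complexes. The stretches below show these elements in the 4 genes of mitotic entry that were lower in depleted cells (Ccnb1, Ccnb2, Cdk1 and Cdca3) beside 3 genes that were higher (Mki67, Top2a and Knl1). Each is the 250 bases before the RefSeq transcription start, 5′ to 3′ on the gene's strand (RefSeq, GRCm38.p6). Capitals mark CCAAT or its reverse complement ATTGG, and the CHR letters TTTGAA, their reverse complement TTCAAA, or TTCGAA.
Ccnb1, chr13:100786487-100786736, minus strand: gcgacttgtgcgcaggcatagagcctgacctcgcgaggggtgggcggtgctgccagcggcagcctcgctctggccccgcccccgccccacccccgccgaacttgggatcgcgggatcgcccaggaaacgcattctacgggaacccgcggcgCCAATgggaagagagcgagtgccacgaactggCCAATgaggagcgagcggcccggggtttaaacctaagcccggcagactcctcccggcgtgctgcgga
Ccnb2, chr9:70421555-70421804, minus strand: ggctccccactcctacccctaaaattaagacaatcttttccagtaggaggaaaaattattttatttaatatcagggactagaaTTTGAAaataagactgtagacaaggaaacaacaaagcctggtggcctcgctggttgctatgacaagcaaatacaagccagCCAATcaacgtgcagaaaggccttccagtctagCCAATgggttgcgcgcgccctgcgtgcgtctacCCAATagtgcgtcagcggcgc
Cdk1, chr10:69352913-69353162, minus strand: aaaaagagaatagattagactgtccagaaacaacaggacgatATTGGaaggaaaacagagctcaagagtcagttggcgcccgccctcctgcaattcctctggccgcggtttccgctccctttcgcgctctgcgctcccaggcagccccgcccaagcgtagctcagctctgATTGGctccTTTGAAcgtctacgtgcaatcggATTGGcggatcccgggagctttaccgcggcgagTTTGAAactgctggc
Cdca3, chr6:124829926-124830175, plus strand: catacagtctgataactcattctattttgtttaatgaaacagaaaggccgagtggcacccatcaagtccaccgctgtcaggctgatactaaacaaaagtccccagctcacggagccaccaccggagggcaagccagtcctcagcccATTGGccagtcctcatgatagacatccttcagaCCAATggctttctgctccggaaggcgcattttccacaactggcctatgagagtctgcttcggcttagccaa
Mki67, chr7:135716380-135716629, minus strand: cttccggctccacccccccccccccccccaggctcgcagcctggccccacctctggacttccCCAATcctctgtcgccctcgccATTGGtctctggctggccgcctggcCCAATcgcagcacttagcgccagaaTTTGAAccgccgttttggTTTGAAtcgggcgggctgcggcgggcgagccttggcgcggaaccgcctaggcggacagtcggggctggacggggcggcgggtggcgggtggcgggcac
Top2a, chr11:99024190-99024439, minus strand: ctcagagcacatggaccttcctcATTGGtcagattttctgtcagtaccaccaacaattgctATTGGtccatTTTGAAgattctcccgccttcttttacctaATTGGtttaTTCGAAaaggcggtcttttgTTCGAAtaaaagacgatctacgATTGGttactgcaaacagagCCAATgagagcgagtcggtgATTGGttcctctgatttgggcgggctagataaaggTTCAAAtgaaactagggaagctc
Knl1, chr2:119046869-119047118, plus strand: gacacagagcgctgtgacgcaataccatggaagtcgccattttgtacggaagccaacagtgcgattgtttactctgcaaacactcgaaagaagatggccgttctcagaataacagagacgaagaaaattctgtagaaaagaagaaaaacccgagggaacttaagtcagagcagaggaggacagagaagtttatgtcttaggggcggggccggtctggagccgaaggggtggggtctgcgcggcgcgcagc

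Ccnb2 carried 3 CCAAT boxes, the first bases of which lay 87, 54 and 21 bases before the start, and Ccnb1 carried 2, at 99 and 67 bases. Cdk1 had CCAAT on the minus strand at 208, 80 and 48 bases and a CHR match at 71 and at 15 bases. Cdca3 had CCAAT on the minus strand at 104 bases and on the plus strand at 71 bases. The stretches of Ccnb1 and Cdca3 held no CHR match, and that of Ccnb2 held 1, at 167 bases. Among the genes that were higher, Top2a held 6 CCAAT and 4 CHR matches and Mki67 held 3 and 2, whereas the stretch of Knl1 held neither. The same letters thus stood before some genes that fell and some genes that rose.

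Promoter windows of 300 bases, which also include the first 50 transcribed bases, were found for 33 of the 40 members (36 windows, since some genes have more than 1 start). A CHR match on either strand was present in 30 of the 36 windows (83.3%), against 19.2% of all 32851 promoter windows. In the 250 bases before the start alone, 16 of the 36 windows (44.4%) held one, against 17.1% of all. CCAAT on either strand was present in 27 (75.0%), against 37.4% of all windows, and at least 2 copies were present in 19 (52.8%), against 11.7%. The letters of both motifs shared a base in 1 member window. By direction, a CHR match stood in 11 of 13 windows of members called higher, 8 of 12 of members called lower and 11 of 11 of members not called. In the 250 bases before the start the order of the first groups was the other way, with a CHR match in 4 of 13, 5 of 12 and 7 of 11 windows. CCAAT stood in 8, 9 and 10 of the windows of 300 bases. A match describes the letters in the window and is not evidence that a factor binds there.

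The comparison asked which genes differ between cilia-competent and cilia-depleted cells. The mitosis genes divided: 17 of 40 rose in the depleted cells, 13 fell and 10 did not pass an adjusted p of 0.05. Over all genes tested, 34.9% were called higher and 34.3% lower (69.2% in all), so the 30 members called (75.0%) were close to the share of the whole transcriptome. The changes were small. The largest rise was 1.85-fold (Knl1) and the largest fall 1.53-fold (Mad2l1), and 6 of 40 (15%) were called at over 1.5-fold, against 28.4% of all genes. The median log2 change of the members was 0.11, beside -0.006 for all genes tested. The groups did not overlap for 31 members, 18 higher and 13 lower, against 72.5% of all genes (36.4% higher and 36.1% lower). The 40 genes together made up 1394.5, 1560.8 and 1598.5 CPM in the competent samples and 1682.2, 1704.2 and 1647.4 CPM in the depleted samples. This separation depends on the TMM adjustment. As a share of raw total counts they made up 0.148%, 0.162% and 0.167% in competent samples. In depleted samples the share was 0.162%, 0.162% and 0.157%, so the groups overlapped.

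**Figure D1:**
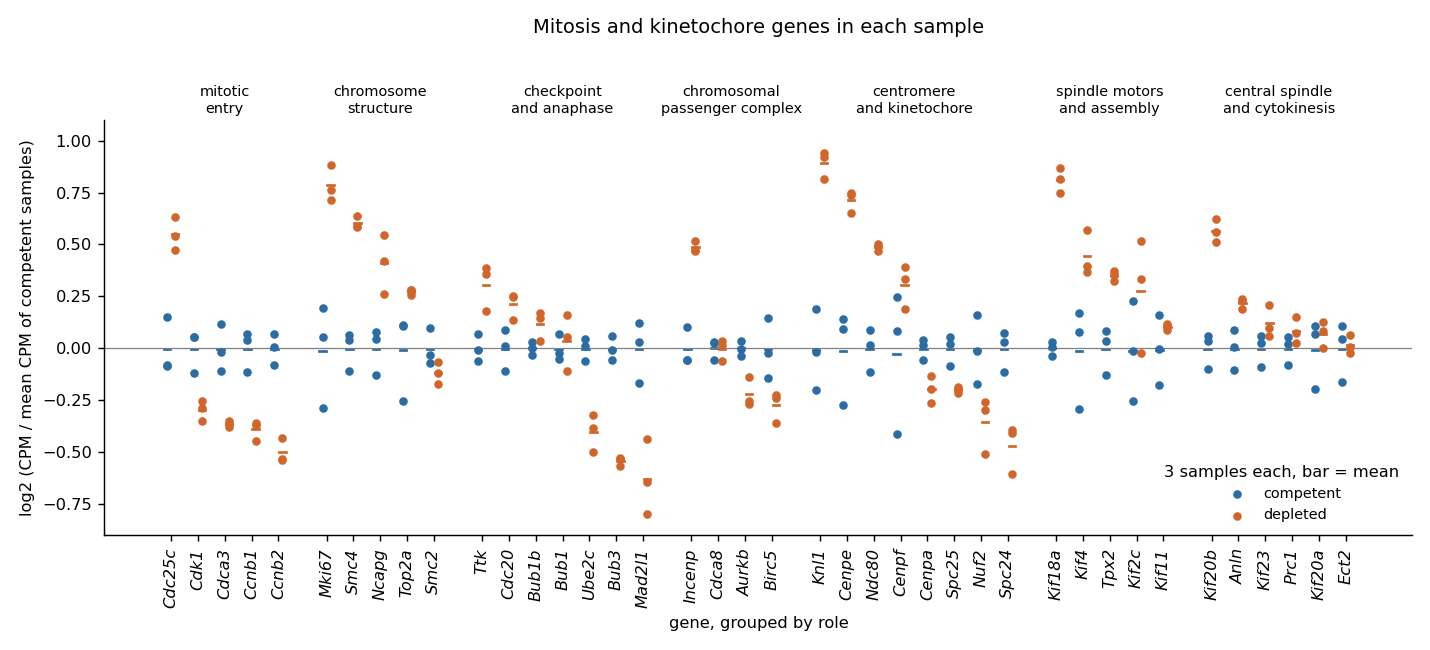
CPM of each gene in each sample, as log2 of its ratio to the mean of the competent samples (vertical axis), with genes grouped by role along the horizontal axis. Blue points are the 3 competent and orange points the 3 depleted samples, with bars at the mean; Knl1, Kif18a and Mki67 lie highest and Mad2l1 and Bub3 lowest in depleted samples.

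Genes of mitotic entry were the role group with the largest share of falls, 4 of 5, beside 34.3% of all genes tested. Cyclin B2, encoded by Ccnb2 (ENSMUSG00000032218; GRCm38 chromosome 9, 70407692 to 70421547, minus strand), had 34.7, 32.8 and 36.4 CPM in competent and 23.9, 25.7 and 23.9 CPM in depleted samples. Every depleted sample lay below every competent one, and Ccnb2 fell 1.41-fold (log2 change -0.50, SE 0.058, adjusted p = 4.39e-06). Ccnb1, which encodes the other main mitotic cyclin, had 47.6, 53.0 and 54.1 CPM against 39.9, 40.2 and 37.9 CPM and fell 1.31-fold (adjusted p = 3.54e-05). Its kinase partner gene Cdk1 had 47.1, 53.2 and 53.2 CPM against 42.0, 42.9 and 40.1 CPM and fell 1.23-fold (adjusted p = 0.000398). The groups did not overlap for either gene. Cdca3, whose product helps degrade the mitotic inhibitor Wee1, fell 1.29-fold. Cdc25c, which encodes the phosphatase that activates Cdk1, moved the other way: 5.23, 5.21 and 6.13 CPM in competent and 8.56, 7.67 and 8.04 CPM in depleted samples, a 1.46-fold rise (log2 change 0.55, SE 0.11, adjusted p = 0.000433). It was also the least abundant gene of this role group per kilobase of transcript.

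Ccnb1 has near-identical pseudogene copies between which counting can split reads. Its closest copy, Ccnb1-ps (99.2% identity over 1287 bases), was counted at 5.30 CPM in competent and 4.13 CPM in depleted samples. Ccnb1 summed with its copies had 59.8 CPM in competent and 45.7 CPM in depleted samples, the same direction as Ccnb1 alone.

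Among genes of chromosome structure, 4 of 5 rose, beside 34.9% of all genes tested, and Smc2 did not pass. Mki67 (ENSMUSG00000031004; chromosome 7, 135689784 to 135716361, minus strand) encodes Ki-67, the proliferation marker that coats mitotic chromosomes. It had 56.0, 71.0 and 78.2 CPM in competent and 116, 126 and 112 CPM in depleted samples, and rose 1.73-fold (log2 change 0.79, SE 0.092, adjusted p = 4.38e-06). The spread among competent samples was wide for this gene, yet the highest of them stayed below the lowest depleted sample. Top2a, the topoisomerase that disentangles chromatids, had 96.2, 124 and 123 CPM against 139, 139 and 137 CPM and rose 1.21-fold (log2 change 0.27, adjusted p = 0.00623). Without competent replicate 1, the lowest of its group, the log2 change of Top2a was 0.16 (adjusted p = 0.00478). The core of condensin divided: Smc4 rose 1.52-fold (adjusted p = 1.455e-07) and the subunit gene Ncapg 1.336-fold, while Smc2, the ATPase partner of Smc4, had a log2 change of -0.12 (adjusted p = 0.0599). Smc2 passed without competent replicate 1 (log2 change -0.15) and without competent replicate 2 (-0.14). The log2 ratio of Smc4 to Smc2 counts was 0.04 ± 0.084 in competent and 0.76 ± 0.033 in depleted samples (SD, n = 3 each).

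The checkpoint and anaphase group held the largest fall. Mad2l1 (ENSMUSG00000029910; chromosome 6, 66535390 to 66547220, plus strand) encodes MAD2, which binds and restrains the APC/C activator Cdc20. Its level was 33.1, 40.4 and 37.9 CPM in competent and 21.4, 27.4 and 23.8 CPM in depleted samples, without overlap (1.53-fold lower, log2 change -0.61, SE 0.088, adjusted p = 3.19e-05). Bub3, another subunit of the mitotic checkpoint complex, fell 1.46-fold (adjusted p = 1.37e-07). Cdc20 rose 1.158-fold (adjusted p = 0.00996), and the kinase gene Ttk, which starts the checkpoint at kinetochores, rose 1.24-fold from 10.7, 11.1 and 11.7 CPM to 14.5, 12.6 and 14.2 CPM (adjusted p = 0.00425). Bub1 and Bub1b, which also encode checkpoint proteins of the kinetochore, did not pass (log2 changes 0.04 and 0.12), although Bub1b passed without depleted replicate 3 (log2 change 0.16).

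Ube2c encodes the ubiquitin-conjugating enzyme of the APC/C and had the highest level per kilobase of all 40 genes, 55.5 CPM per kilobase in competent samples. Its CPM was 51.6, 54.1 and 55.4 in competent and 38.0, 41.1 and 43.0 in depleted samples, a 1.32-fold fall (adjusted p = 2.25e-05). About 22.8% of its exon length overlaps Tnnc2 on the opposite strand. The library kit keeps strand, per the labels, but whether reads were counted by strand is not given in the sources used here, so reads of these genes may be mixed. The same holds for Kif20a (29.3%, overlapping Cdc23), Kif4 (15.1%), Ncapg (13.4%), Cdc25c (12.7%) and Prc1 (11.1%). Of genes named from other lists below, it holds for Anapc15 (38.4%, overlapping Tomt), Ncaph2 (19.75%), Rbbp4 (18.05%), Ccne2 (17.4%) and Ccna2 (12.5%).

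The chromosomal passenger complex corrects faulty attachments and guides cytokinesis through the kinase Aurora B, with Incenp as its scaffold and survivin (Birc5) and borealin (Cdca8) as targeting subunits. Its genes did not move together. Incenp (ENSMUSG00000024660; chromosome 19, 9872296 to 9899551, minus strand) had 56.5, 56.5 and 62.9 CPM in competent and 84.0, 81.3 and 81.6 CPM in depleted samples, a 1.40-fold rise (log2 change 0.49, SE 0.051, adjusted p = 1.40e-06). Birc5 had 15.9, 19.5 and 17.3 CPM against 13.7, 14.9 and 15.04 CPM and fell 1.205-fold (adjusted p = 0.01001). Aurkb fell 1.162-fold (adjusted p = 0.0172), a call lost without depleted replicate 1 or 3 (adjusted p = 0.0540 and 0.0525), and Cdca8 did not pass (log2 change -0.005, adjusted p = 0.960). The groups did not overlap for Incenp, Birc5 and Aurkb. The log2 ratio of Incenp to Aurkb counts was 2.05 ± 0.12 in competent and 2.76 ± 0.091 in depleted samples (SD, n = 3 each).

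All 8 centromere and kinetochore genes passed, 4 in each direction, where 69.2% of all genes tested passed (34.9% higher and 34.3% lower). Knl1 (ENSMUSG00000027326; chromosome 2, 119047119 to 119105501, plus strand), the kinetochore scaffold that recruits checkpoint proteins, had 9.13, 10.4 and 11.9 CPM in competent and 20.1, 19.8 and 18.5 CPM in depleted samples. This was the largest rise of the 40 genes, 1.85-fold (log2 change 0.89, SE 0.091, adjusted p = 1.27e-06), at the lowest level per kilobase, 1.343 CPM per kilobase in competent samples. Cenpe, the kinetochore motor that aligns chromosomes, rose 1.64-fold (adjusted p = 5.27e-06). Cenpf rose 1.23-fold with overlapping groups (adjusted p = 0.0433), a call that was lost without competent replicate 1 (log2 change 0.13) and without depleted replicate 1 or 2. Cenpa, the histone H3 variant that marks centromeres and the highest of this group per kilobase, had 24.9, 26.2 and 26.7 CPM against 23.7, 21.6 and 22.7 CPM and fell 1.15-fold (adjusted p = 0.00869), with an adjusted p of 0.0506 without depleted replicate 2.

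The 4 subunits of the NDC80 complex, the rod that grips microtubules, moved apart. Ndc80 had 11.6, 13.4 and 12.7 CPM in competent and 17.4, 17.7 and 17.8 CPM in depleted samples and rose 1.40-fold (adjusted p = 3.88e-05). Nuf2, whose product pairs with Ndc80 in the same heterodimer, had 9.60, 10.7 and 12.1 CPM against 9.03, 7.61 and 8.81 CPM and fell 1.28-fold (adjusted p = 0.00874). In neither gene did the groups overlap, and the log2 ratio of Ndc80 to Nuf2 counts was 0.22 ± 0.13 in competent and 1.06 ± 0.14 in depleted samples (SD, n = 3 each). Of the other heterodimer, Spc24 had 6.81, 5.97 and 6.61 CPM against 4.87, 4.93 and 4.25 CPM and fell 1.38-fold (log2 change -0.47, SE 0.11, adjusted p = 0.00214). Spc25 fell 1.15-fold (adjusted p = 0.0447), a call lost in 5 of the 6 fits that left out a sample, all but the one without competent replicate 1. The call of Spc25 was also lost with DESeq2 (adjusted p = 0.103), with the replicate block (0.0630) and with no filter on low counts (0.0628). With Ndc80, the transcript 2700099C18Rik shares 763 bases at 92.7% identity; it rose too (log2 change 0.75, adjusted p = 0.000210). The ratios of Ndc80 to Nuf2, Incenp to Aurkb and Smc4 to Smc2 were chosen after the values were seen and carry no test.

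Of the spindle motors and assembly factors, 3 of 5 rose and none fell, beside 34.9% and 34.3% of all genes tested. Kif18a (ENSMUSG00000027115; chromosome 2, 109280738 to 109341747, plus strand), the kinesin that dampens chromosome movement at the metaphase plate, had 6.52, 6.71 and 6.82 CPM in competent and 11.8, 11.2 and 12.2 CPM in depleted samples. It rose 1.76-fold with tight groups far apart (log2 change 0.81, SE 0.085, adjusted p = 1.55e-06). Tpx2, a spindle assembly factor and activator of Aurora A, had 46.4, 52.0 and 53.8 CPM against 64.9, 65.6 and 63.4 CPM and rose 1.27-fold (adjusted p = 8.18e-05). The chromokinesin gene Kif4 rose 1.36-fold. Kif11, the motor that pushes spindle poles apart, did not pass (log2 change 0.10, adjusted p = 0.212), except without competent replicate 3 (log2 change 0.18). Kif2c, a microtubule depolymerase, did not pass either (log2 change 0.29, adjusted p = 0.0866) but did so without competent replicate 2 (log2 change 0.41) or depleted replicate 3 (0.43), and with the replicate number as a block (adjusted p = 0.0355).

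Of the 6 central spindle and cytokinesis genes, 2 rose, none fell and 4 did not pass. Among all genes tested, 34.9% rose and 34.3% fell. Kif20b, a kinesin of the midbody, had 33.2, 36.4 and 37.0 CPM in competent and 50.8, 54.7 and 52.4 CPM in depleted samples and rose 1.48-fold (log2 change 0.57, SE 0.055, adjusted p = 7.05e-07). Anln, which encodes the actin-binding ring protein anillin, rose 1.164-fold (adjusted p = 0.00187). Kif23, the centralspindlin motor and the highest of the group per kilobase, had 107.6, 119.5 and 116.8 CPM against 132.3, 122.5 and 119.7 CPM, groups that did not overlap (log2 change 0.12, adjusted p = 0.0505). Kif23 passed without competent replicate 2 (log2 change 0.14) and without depleted replicate 3 (0.15). For Prc1, Kif20a and Ect2, which encode the microtubule bundler, a motor and a cytokinesis factor, the groups overlapped and log2 changes were 0.08, 0.07 and 0.02.

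The competent samples were not alike in these genes. Competent replicate 1 was the lowest of its group for 34 of the 40 members, whereas it was the lowest for 34.1% of all genes tested. Its median log2 deviation from its group's mean was -0.10 over the members and 0.002 over all genes. Competent replicate 3 was the highest of its group for 24 members, against 30.7% of all genes. In the depleted group the replicates were lowest for 12, 10 and 18 members. Without competent replicate 1, 16 members rose and 14 fell, and the median log2 change of the members was 0.06. In that fit 9246 of all 14029 genes tested were called, 50.3% of them higher. What set competent replicate 1 apart was not tested.

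Length of the transcript moved with the direction of change. The 40 genes ranged from 947 nt (Birc5) to 11130 nt (Cenpf) in their principal transcript. Of the 7 members among the shortest protein-coding genes (204 to 1739 nt, the first of 5 equal bins), 6 fell and none rose, and the median log2 change was -0.27, beside -0.34 for all 2561 protein-coding genes of that length. Of the 9 members in the longest bin (4972 nt or more), 7 rose and 1, Mad2l1, fell, with a median of 0.45 beside 0.25 for 2559 genes. Among all genes tested, 34.3% were called lower and 34.9% higher. The share of all genes called within each bin was not counted, so these counts are not a result about the members. Spearman's rank correlation between length and log2 change was 0.502 across the 40 members and 0.338 across 12793 protein-coding genes; these are genes within the same 6 libraries, not independent replicates. What produced the trend was not tested.

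**Figure D2:**
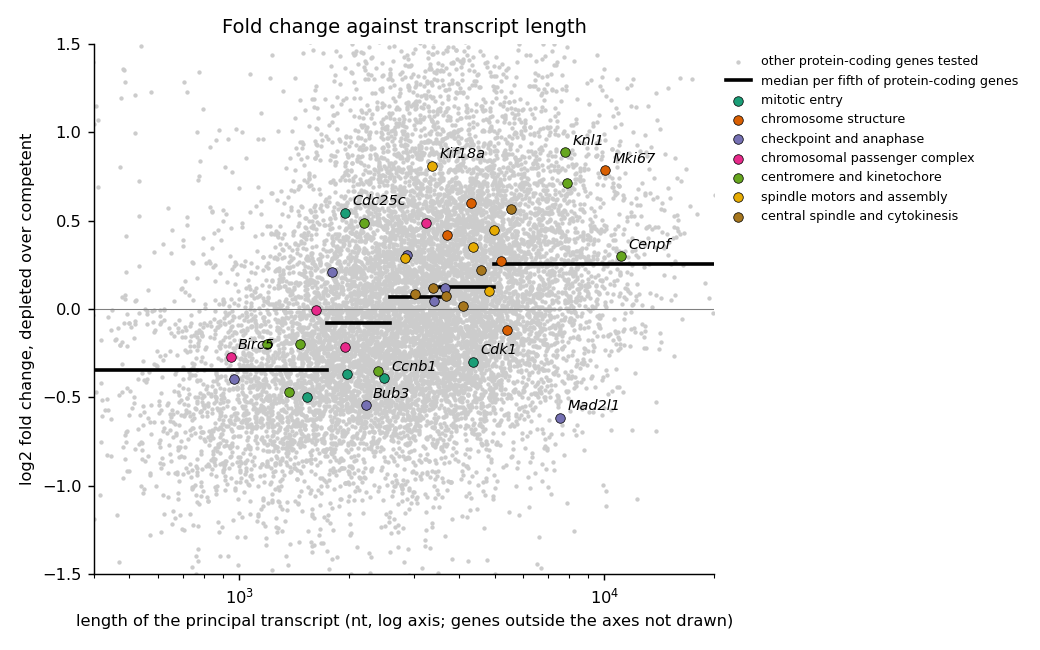
Log2 fold change of depleted over competent cells (vertical axis) against the length of the principal transcript in nucleotides (horizontal log axis). Grey points are other protein-coding genes, black bars the medians of 5 equal bins by length, and coloured points the 40 members by role; the short members lie mostly below 0, and Mad2l1 lies low among the long ones.

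With the trend with length removed from each library by a loess curve, 14 members rose, 8 fell and 18 did not pass, against 69.1% of all genes called in that fit (33.8% higher and 35.3% lower), and the median log2 change of the members was 0.03. Of the 30 members called in the counts as deposited, 21 were called in the same direction and 9 were lost: Top2a, Ube2c, Aurkb, Birc5, Cenpf, Cenpa, Spc25, Spc24 and Anln. The falls of Ccnb1 (log2 change -0.40), Ccnb2 (-0.29), Cdk1 (-0.45), Cdca3 (-0.27), Bub3 (-0.50), Nuf2 (-0.35) and Mad2l1 (-0.87) remained, as did the rises of Kif18a (0.71), Cdc25c (0.65), Knl1 (0.62), Ndc80 (0.53), Mki67 (0.48) and Smc4 (0.45). Smc2 was then called lower (log2 change -0.31, adjusted p = 2.09e-05). The main transcript of the annotation may not be the one these cells use. For Cdk1 it is 4375 nt long and the median over its annotated transcripts 2814 nt. For Mad2l1 these lengths are 7557 nt and 4641 nt, and the median lies in the bin of 3537 to 4971 nt, not the longest. With median lengths, an alternative chosen after the data were seen, 15 members rose and 11 fell, 23 of the 30 calls remained and the members' median was 0.006. In that fit 9531 of all 13839 genes were called, 48.7% of them higher.

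**Figure D3:**
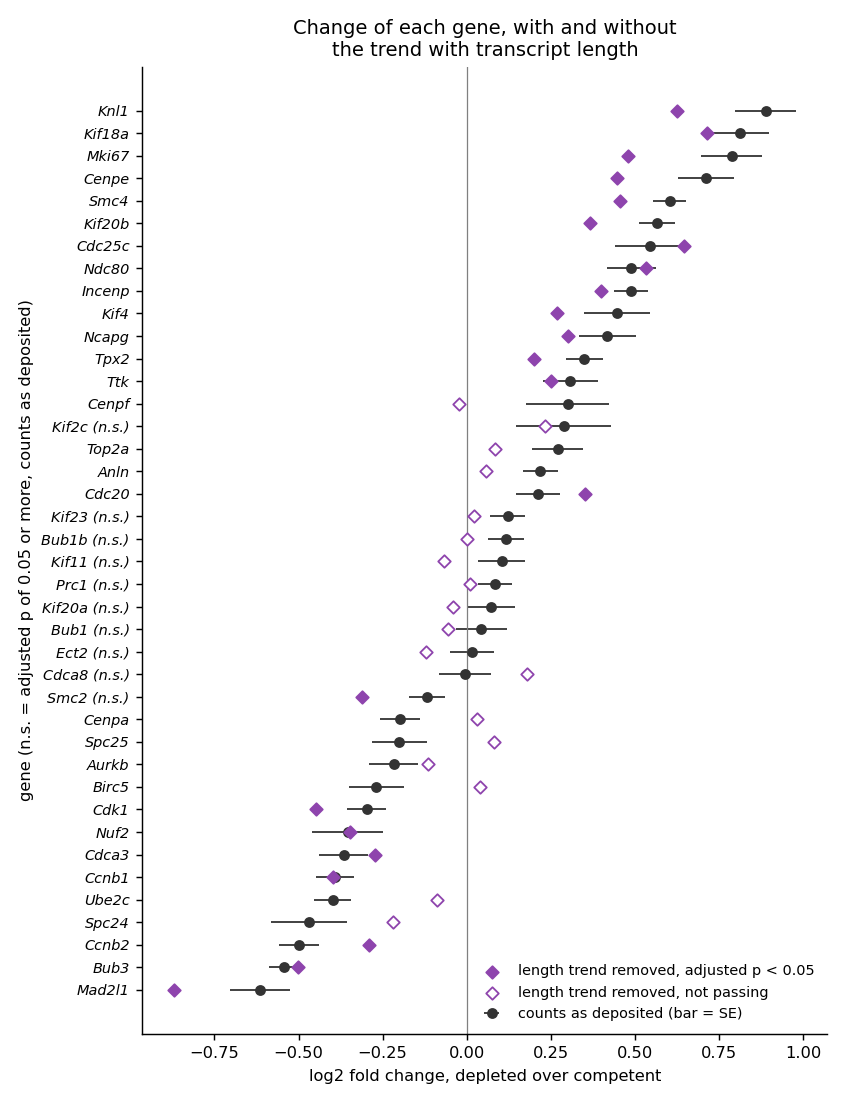
Log2 fold change of each of the 40 genes, depleted over competent (horizontal axis), ordered by the value from the counts as deposited (vertical axis). Black points with SE bars are the counts as deposited and purple diamonds the values with the length trend removed, filled where the adjusted p is below 0.05; the 4 entry genes Ccnb1, Ccnb2, Cdk1 and Cdca3 stay below 0 with filled diamonds.

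Further genes of the mitotic apparatus, 49 in all, were listed apart from the 40. Here 20 were higher (40.8%) and 9 lower (18.4%) at the threshold, beside 34.9% and 34.3% of all genes. In all, 59.2% of the list was called, against 69.2% of all genes. The threshold was missed by 20, and the median log2 change of the list was 0.20. The spindle kinesin genes Kif15, Kif18b and Kif14 rose most, by 2.20-fold, 1.99-fold and 1.88-fold. The largest falls were in Pttg1, which encodes securin, the guard of chromatid cohesion (1.94-fold lower, from 15.6 to 8.02 CPM), Mis18a, a loader of Cenpa (1.63-fold), and the centromere gene Cenpm (1.47-fold). The call of Cenpm was lost with the length trend removed (log2 change -0.27, adjusted p = 0.149). Some well-known members were looked up after the values were seen. Ccna2, which encodes cyclin A2, fell (log2 change -0.34), Aurka, the spindle pole kinase, rose (log2 change 0.33), and Plk1, the master kinase of mitosis, did not pass (log2 change 0.04, adjusted p = 0.587).

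Among 10 partners of condensin and cohesin, 6 rose and 2 fell, beside 34.9% and 34.3% of all genes, and their median was 0.24 (log2). With the length trend removed, 5 were called higher and 4 lower, and the median was 0.07. The condensin genes Ncaph, Ncapd3 and Ncapd2 rose 1.44-fold, 1.41-fold and 1.36-fold, while Ncaph2 and the cohesin gene Rad21 fell (log2 changes -0.34 and -0.25). Of 16 genes of the APC/C and its partners, 6 fell, 3 rose and 7 missed the threshold (median -0.06, log2). Cdc27 rose 1.503-fold and Fbxo5, which encodes the APC/C inhibitor Emi1, 1.48-fold, whereas the small subunit genes Anapc15 and Anapc11 fell 1.81-fold and 1.80-fold and Cdc26 1.46-fold. Anapc7 rose slightly (log2 change 0.18). With the length trend removed, Anapc15, Anapc11 and Cdc26 had log2 changes of -0.51, -0.93 and -0.23, and Anapc7 an adjusted p of 0.0501. The lengths used were 650, 3229 and 819 nt for Anapc15, Anapc11 and Cdc26. Medians over their annotated transcripts were 1084.5, 2095.5 and 736.5 nt, so the corrected values depend on the transcript taken.

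Factors that transcribe or repress mitosis genes were examined as 20 genes. Of these, 9 rose (45%) and 4 fell (20%), beside 34.9% and 34.3% of all genes, and 7 missed the threshold (median 0.06, log2). With the length trend removed the balance turned, to 6 higher and 7 lower with a median of -0.02. Lin52 and Lin37, subunits of the MuvB core that binds the CHR, rose 1.99-fold and 1.61-fold, from 3.78 to 7.51 CPM and from 9.23 to 14.8 CPM. Nfya, a subunit of the CCAAT-binding factor NF-Y, rose 1.49-fold. Tfdp1, the DNA-binding partner of E2F proteins, fell (log2 change -0.33), as did Rbbp4 (-0.29) and the repressor gene E2f4 (-0.22). Foxm1 and Mybl2, the activators that bind MuvB late in the cycle, did not pass (log2 changes -0.10 and 0.05, looked up after their values were seen). With the length trend removed Foxm1 was called lower (log2 change -0.26, adjusted p = 0.000288).

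S phase genes fell more often than they rose: 14 of 24 were lower (58.3%), 4 higher (16.7%) and 6 not called. Over all genes tested, 34.3% were lower and 34.9% higher. The median of the S phase genes was -0.17 (log2). With the length trend removed, 13 of the 24 were called lower and 4 higher, and their median was -0.20. Ccne1, Rrm2 and Ccne2 fell 2.23-fold, 1.82-fold and 1.59-fold, while Mcm10, Cdt1 and Pola1 rose 1.80-fold, 1.59-fold and 1.35-fold. The Ccne2 call was lost without competent replicate 3, depleted replicate 2 or depleted replicate 3 (adjusted p = 0.113, 0.0724 and 0.0733). Of 7 genes of cyclin-dependent kinase inhibitors, which block the cycle, Cdkn1a (p21) and Cdkn2b (p15) rose, Cdkn2a and Cdkn2c fell and 3 did not pass. Their log2 changes were 0.75, 0.58, -0.65 and -0.35. In each direction 28.6% of this list was called, below the 34.9% higher and 34.3% lower of all genes. The call of Cdkn2c was lost when competent replicate 2 or 3, or depleted replicate 3, was left out (adjusted p = 0.0635, 0.0588 and 0.111). The difference between any of these lists and the 40 members was not tested.

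**Figure D4:**
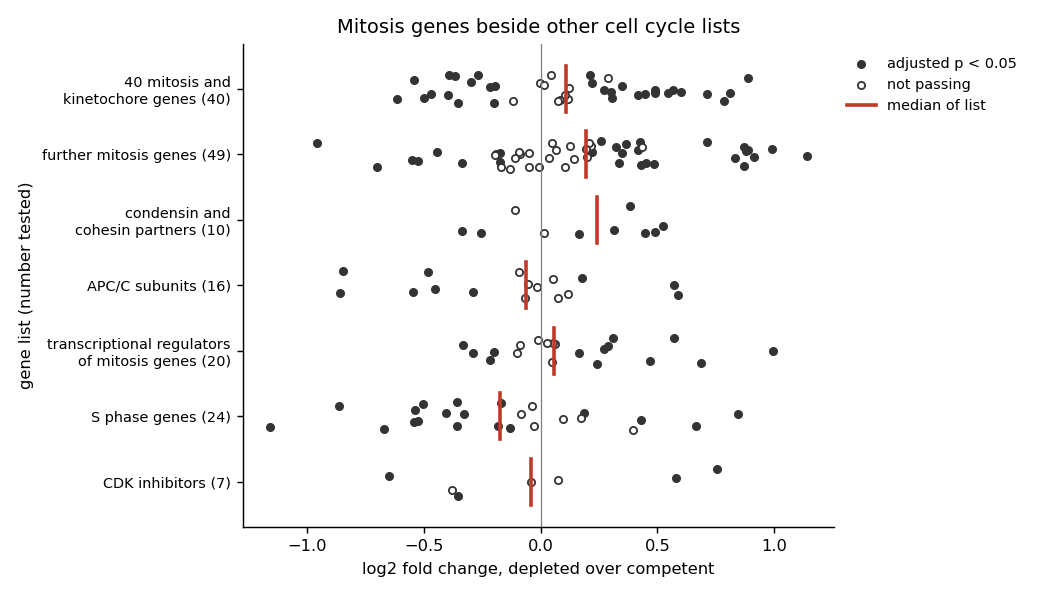
Log2 fold change of depleted over competent cells (horizontal axis) for the 40 mitosis and kinetochore genes and for 6 further lists (vertical axis, with the number tested). Filled points passed an adjusted p of 0.05, open points did not, and red bars are medians, from -0.17 for S phase genes to 0.24 for partners of condensin and cohesin.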

How the data were processed

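Poly-A RNA libraries of 6 samples were sequenced. The authors deposited 1 table of raw read counts per Ensembl gene. Per the submitters' processing notes, FastQC 0.11.9, MultiQC 1.3, cutadapt 1.16, STAR 2.7.1a, featureCounts, DESeq2 1.34.0 and the GRCm38 build were used; neither the annotation nor the strand setting is given in the sources used here. Symbols were found for 31976 of the 32061 genes and lengths for 32009, from GENCODE M21 principal transcripts. Genes passing edgeR's filterByExpr were tested with edgeR 4.0.16 (R 4.3.3): TMM scaling, quasi-likelihood F-test, two-sided, Benjamini-Hochberg adjustment over 13839 genes, adjusted p below 0.05. All fold changes are depleted over competent from this fit, and n is 3 per group; the common biological coefficient of variation was 5.20%. The length trend was removed as an offset from a loess curve (span 0.5). DESeq2 1.42.0, limma 3.58.1 (voom), other scalings and filters, a replicate block and leaving out each sample were alternatives. Near copies were found with BLAST 2.17.0, and motifs searched in Python 3.11.15.

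Members and lists were chosen with earlier results of these data known. In each role group the gene with the largest called rise, the largest called fall and the highest level per kilobase was given by sample; values by sample for Ccnb1, Cdk1, Ndc80 and Nuf2 were chosen after they were seen. In the other lists the 3 largest called rises and falls were named. Lin54 was not analysed here.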

Additional observations from a re-analysis of the deposited data

How the results depend on the processing

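Removing the length trend lowered the count of members that fell to 8 and the members' median log2 change to 0.034 (0.0337 with the replicate block, 0.0057 with median transcript lengths, chosen after the data were seen); the cause was not tested. Leaving out 1 sample at a time gave 8929 to 9333 genes called, 16 to 20 members higher, 11 to 14 lower and a median of 0.059 to 0.127. None of the 30 members called in the counts as deposited was called in the opposite direction under the alternatives run. Of members not called there, Ect2 was called lower with the length trend removed under the replicate block or median lengths, and Cdca8 higher under median lengths.

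Log2 changes that turned sign were small. With the length trend removed they were Bub1 -0.056, Cdca8 0.179, Birc5 0.039, Cenpf -0.024, Cenpa 0.029, Spc25 0.082, Kif11 -0.067, Kif20a -0.042 and Ect2 -0.121, and with the replicate block too Bub1 -0.062, Cdca8 0.178, Birc5 0.038, Cenpf -0.019, Cenpa 0.029, Spc25 0.081, Kif11 -0.065, Kif20a -0.042 and Ect2 -0.120. With median transcript lengths they were Bub1b -0.029, Bub1 -0.087, Cdca8 0.192, Cenpf -0.040, Cenpa 0.108, Spc25 0.021, Kif11 -0.092, Kif23 -0.0094, Prc1 -0.024, Kif20a -0.043 and Ect2 -0.147. Upper-quartile scaling gave Bub1 -0.0069 and Ect2 -0.034, and a filter of 1 CPM gave Cdca8 0.00047. Over fits without 1 sample, Kif20a ran from -0.018 to 0.123, Ect2 from -0.061 to 0.065, Cdca8 from -0.034 to 0.026 and Bub1 from -0.023 to 0.108; the cause was not tested.

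Same-numbered samples did not deviate together (r of -0.0278, 0.0133 and -0.0155). This shows no large shared effect in 3 libraries per group, and cannot exclude that same-numbered samples share an origin. With the replicate block 9526 genes, 18 members higher and 12 lower were called. DESeq2 called 9093 genes and 28 of the 30 members, without Cenpf and Spc25. Members near 5 CPM, such as Spc24 and Cdc25c, rest on the fewest counts.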
